A study of Homo sapiens with 15 samples.

Results

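The genes described here are 10 genes of AP-1 and the immediate early response. They are the AP-1 subunit genes FOS, FOSL1, FOSL2, JUN, JUNB and JUND, the zinc finger transcription factor gene EGR1, IER2, IER3 and the mRNA decay gene ZFP36. They were taken by symbol from a table of 62754 genes, and each symbol matched 1 row. All 10 passed the filter on low counts that left 13828 genes to test.

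Immediate early genes are transcribed within minutes of a growth factor or stress signal, from regulators that are already in the cell, and most of their mRNAs are short-lived. Fos proteins cannot pair with each other and bind DNA as dimers with a Jun protein; together they form AP-1, which binds the motif TGACTCA in many genes of proliferation, matrix remodelling and inflammation. EGR1 is induced through serum response factor and its ETS partners downstream of ERK. ZFP36 (tristetraprolin) binds AU-rich elements in short-lived mRNAs, its own among them, and directs their decay, which makes it a brake on the same response.

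RNA was measured in MCF10A, an established, non-tumorigenic and hormone receptor negative line of human breast epithelial cells, genotype WT. Cells were kept in glutamine-free DMEM/F12 to which glutamine was added to 0.04 mM, to 0.12 mM, to 0.20 mM or to 0.28 mM, or in full medium with the usual 2.5 mM. Before that they were maintained in DMEM/F12 with mammary epithelial growth supplements, cholera toxin and penicillin-streptomycin, a medium rich in growth factors in which these genes need not be silent. The design text gives 3 biological replicates for each of the 5 groups, 15 libraries in all, from 1 cell line. How long the cells were kept at each concentration, and what a replicate number marks, is not given in the sources used here.

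Gene counts per library were 3704170 to 13361406, and spike-in RNA made up 1.03 to 1.58% of all counts. Replicate 1 libraries held 11228596 to 13361406 gene counts, replicate 2 libraries 6454088 to 9183710 and replicate 3 libraries 3704170 to 8762578. Mitochondrial ribosomal RNA exceeded 1% of counts in 2 libraries, 0.04 mM replicate 3 (2.97%) and 0.12 mM replicate 3 (1.62%). All 11 basal breast epithelial markers checked were expressed, with summed levels of 21100 to 32300 CPM (read counts scaled to library size), while the hormone receptor genes ESR1 and PGR did not exceed 0.544 CPM in any library. Other luminal markers checked were expressed: KRT18 at 343 to 447 CPM, KRT8 at 86.1 to 165 and GATA3 at 13 to 24.8. FOXA1 was low, at 1.42 to 4.1 CPM, and KRT19 did not exceed 0.27 CPM. Libraries that share a replicate number resembled each other whatever their glutamine, so differences come from an edgeR model that holds the replicate number as a block unless stated otherwise. The words rose and fell are kept for genes whose Benjamini-Hochberg adjusted p, taken over the 13828 genes, is under 0.05.

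In GRCh38.p14, FOS (ENSG00000170345) lies on chromosome 14 from 75278828 to 75282230, FOSL1 (ENSG00000175592) on chromosome 11 from 65892049 to 65900545 and FOSL2 (ENSG00000075426) on chromosome 2 from 28392858 to 28417317. JUN (ENSG00000177606) lies on chromosome 1 from 58780791 to 58784047, JUNB (ENSG00000171223) on chromosome 19 from 12791486 to 12793315 and JUND (ENSG00000130522) on chromosome 19 from 18279694 to 18281622. EGR1 (ENSG00000120738) is on chromosome 5 from 138465479 to 138469303 and ZFP36 (ENSG00000128016) on chromosome 19 from 39406847 to 39409407. IER2 (ENSG00000160888) is on chromosome 19 from 13150411 to 13154911 and IER3 (ENSG00000137331) on chromosome 6 from 30743199 to 30744547. Exons on the opposite strand cover 14.23% of the exonic length of JUNB (HOOK2), 30.79% of IER2 (AC011446.2) and 26.47% of IER3 (IER3-AS1), and whether the counting used strand is not given, so values of these 3 genes are uncertain to that extent. The partner of JUNB, HOOK2, stood at 11.4 to 19.3 CPM, AC011446.2 at 0.155 to 2.01 CPM, and IER3-AS1 at no more than 0.388 CPM.

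RefSeq promoters (GRCh38.p14, 250 bases before to 50 after the start) were matched for 8 of the 10 genes; FOSL1 and IER3 had no entry in the table used. The 250 bases before the start are shown for EGR1, as the member with the motif of serum response factor, for FOS and JUNB, which were higher under limitation, and for JUN and ZFP36, which were lower. Capitals mark CArG boxes (the serum response factor motif) and the TATA motif TATAAA. The windows are, in the same order, chr5:138465229-138465478 (+ strand), chr14:75278578-75278827 (+), chr19:12791236-12791485 (+), chr1:58784048-58784297 (- strand, shown 5′ to 3′ of the gene) and chr19:39406597-39406846 (+).
EGR1: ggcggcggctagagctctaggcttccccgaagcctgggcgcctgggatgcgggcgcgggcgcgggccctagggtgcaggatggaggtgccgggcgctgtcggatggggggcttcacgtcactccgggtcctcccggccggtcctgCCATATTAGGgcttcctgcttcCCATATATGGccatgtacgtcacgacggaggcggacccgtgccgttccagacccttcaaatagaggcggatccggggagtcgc
FOS: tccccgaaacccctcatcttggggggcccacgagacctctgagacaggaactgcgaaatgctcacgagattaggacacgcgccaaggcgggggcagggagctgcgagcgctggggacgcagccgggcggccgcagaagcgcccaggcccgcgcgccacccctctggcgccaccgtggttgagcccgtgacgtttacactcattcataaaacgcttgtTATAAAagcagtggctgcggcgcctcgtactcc
JUNB: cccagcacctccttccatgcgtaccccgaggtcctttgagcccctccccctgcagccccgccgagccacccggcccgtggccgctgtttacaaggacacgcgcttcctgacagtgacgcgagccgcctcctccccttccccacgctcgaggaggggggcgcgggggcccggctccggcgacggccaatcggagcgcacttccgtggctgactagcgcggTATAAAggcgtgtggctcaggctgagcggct
JUN: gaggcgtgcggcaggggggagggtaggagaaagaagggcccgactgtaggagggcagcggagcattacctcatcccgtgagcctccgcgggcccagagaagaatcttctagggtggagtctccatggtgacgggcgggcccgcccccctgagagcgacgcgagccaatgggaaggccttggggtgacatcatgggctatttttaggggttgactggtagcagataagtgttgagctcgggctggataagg
ZFP36: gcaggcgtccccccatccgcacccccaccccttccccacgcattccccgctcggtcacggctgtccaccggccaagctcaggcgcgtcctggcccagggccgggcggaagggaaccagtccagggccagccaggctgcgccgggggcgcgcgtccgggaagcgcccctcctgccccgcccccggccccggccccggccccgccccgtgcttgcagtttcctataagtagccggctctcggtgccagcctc

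Of the 8 promoters, searched on both strands over all 300 bases, EGR1 alone held a CArG box, at 105 and again at 83 bases before the start, against 1.29% of all 35116 promoters in the table. TATAAA was found in FOS and JUNB (11.5% of all promoters). The AP-1 motif itself, TGACTCA or its reverse TGAGTCA, was found in FOSL2 (4.95% of all), and the cyclic AMP response element TGACGTCA in JUND (1.85% of all). Its shorter form TGACG, which overlaps TGACGTCA, was in 7 of the 8, the exception being ZFP36 (24.6% of all). GC content was 62 to 77% in the 8 promoters, against a median of 58.7%. A match is a description of the letters in the window and not a measured binding site. Only exact matches to these motifs were counted, so a variant of a motif inside the window is not listed. Sites farther upstream, and the promoters of FOSL1 and IER3, were not searched, so a motif missing here may lie outside the window.

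AU-rich elements were read from the 3′UTR of each member. The nonamer TTATTTATT, the core that ZFP36 binds, was found in FOS, FOSL2 and ZFP36 itself, 3 of 10 members, against 9.75% of the 11744 tested genes with an annotated 3′UTR. The nonamers are shown in capitals with 8 bases on either side.
FOS: tttttaatTTATTTATTaagatgga
FOSL2: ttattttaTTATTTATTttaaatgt
ZFP36: tgacgactTTATTTATTctaatatg

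The shorter pentamer ATTTA occurred 7.01 times per kb of 3′UTR in ZFP36, 6.64 in IER3, 6.2 in FOS and 4.0 in JUNB, and not at all in IER2; the median was 2.09 per kb over the members and 1.72 over the tested genes.

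All 10 genes were expressed in every library, the lowest count of any being 111 (FOS, at 0.04 mM replicate 3). Set against exonic length, IER3, an early response gene that modulates cell survival, was the most abundant, at a mean of 85.2 CPM per kb over the 15 libraries. FOSL1, the Fos family member that accumulates under sustained ERK signalling, followed at 68.7, then JUNB at 55.6 and EGR1 at 48.5 CPM per kb. JUND, ZFP36, IER2, JUN and FOSL2 lay between 30.4 and 23.1 CPM per kb, and FOS was lowest at 10.5. Among the 3 Fos transcripts, on the same scale, FOSL1 made up 66% (58 to 75.9% over libraries), FOSL2 23.4% and FOS 10.6%. Of the 3 Jun transcripts JUNB made up 50.9%, JUND 27.9% and JUN 21.2%.

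Limited glutamine was accompanied by small changes in 5 of these genes, in both directions. With the 4 limited groups averaged and set against full medium, 3 of the 10 rose (FOS, JUNB and IER2), 2 fell (JUN and ZFP36) and 5 did not pass the test; of all genes tested 8.67% rose and 8.37% fell, 17% in all. These calls depend on the replicate block: in the planned main model, which has none, 0 of the 10 passed in this or any other comparison, against 0.289% of all genes in this one and 0.0434, 0, 0.0145 and 0% at 0.04, at 0.12, at 0.20 and at 0.28 mM. At an unadjusted p under 0.05 that fit had 1 member at 0.04 mM (JUNB), 1 at 0.20 mM (ZFP36) and 0 in the rest, where 1609 and 1415 of the 13828 genes were under it at 0.04 and at 0.20 mM. DESeq2 without the block also called 0 members in each, and of all genes 155, 23, 43 and 1 from the lowest to the highest limited concentration and 242 for the average. No change of a member exceeded 1.5-fold in either direction. The RNA is bulk, so a difference in the share of cells that express a gene cannot be told apart from one in the amount per cell.

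**Figure D1:**
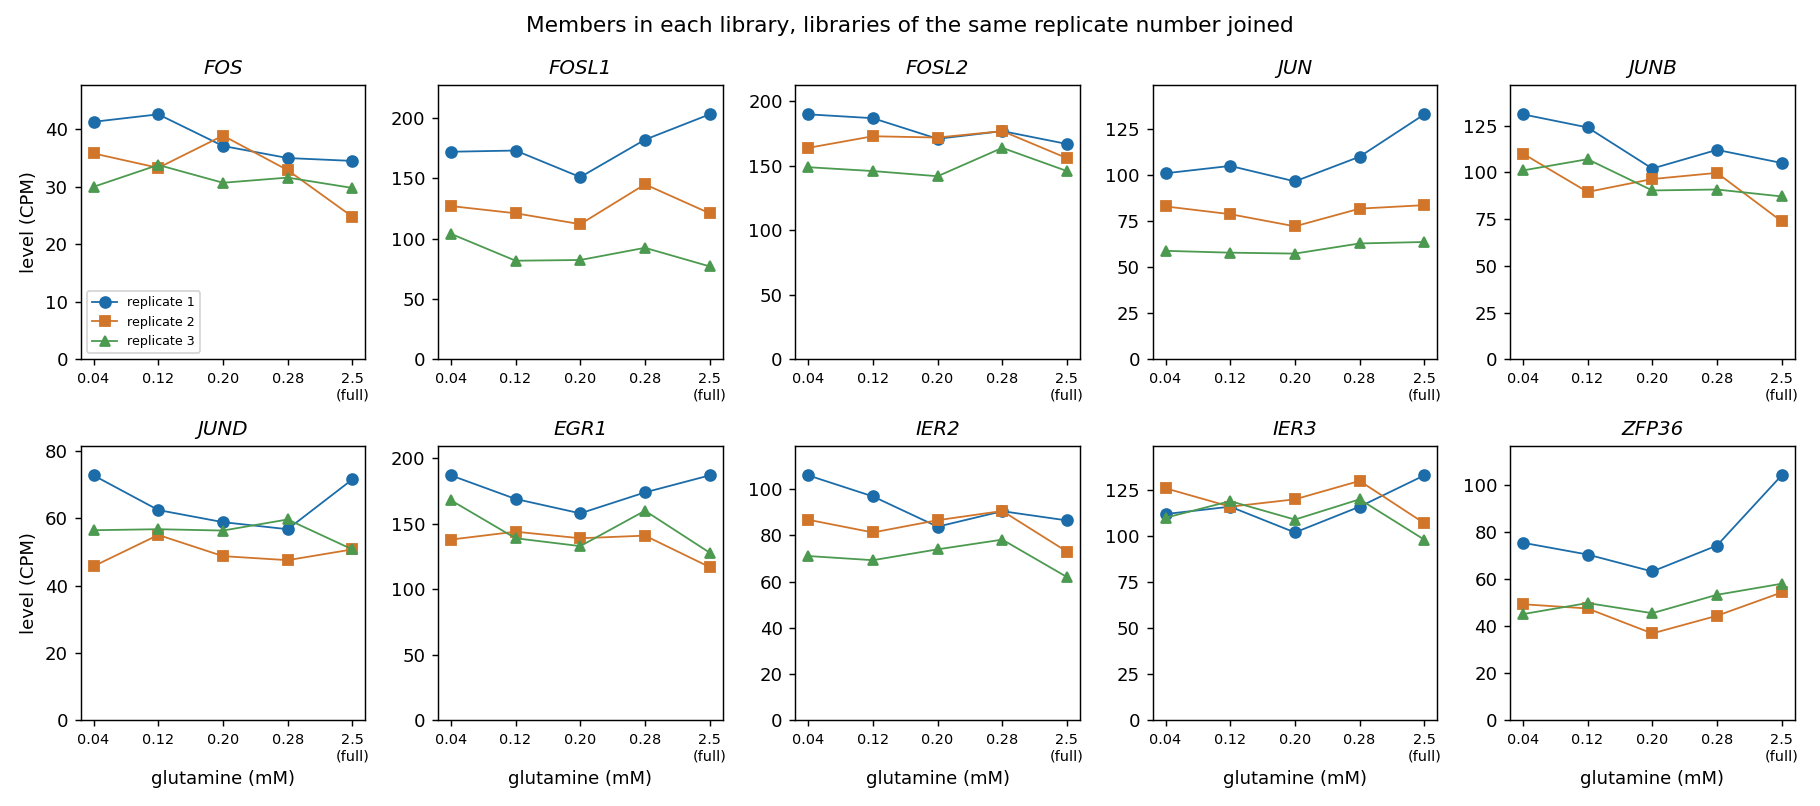
Level of each of the 10 genes (CPM, linear axis from 0) in each of the 15 libraries, against glutamine concentration in mM with full medium at the right; points are libraries and lines join libraries of the same replicate number. ZFP36 and JUN have their highest library in full medium within each replicate number, and FOS its lowest; for FOSL1 and JUN the replicate numbers are separated over the whole range.

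ZFP36 was the member with the steepest change, and it fell at all 4 limited concentrations. It stood at 75.4, 49.3 and 45.1 CPM in replicates 1, 2 and 3 at 0.04 mM, 70.4, 47.5 and 49.8 at 0.12 mM, 63.2, 36.9 and 45.5 at 0.20 mM, 74.2, 44.4 and 53.3 at 0.28 mM, against 104, 54.3 and 58 in full medium. Within each replicate number full medium was the highest of the 5 libraries, which held in all 3 numbers for 7.12% of all genes, and the groups overlapped, with replicate 1 the highest in every group. The log2 fold change was -0.32 (SE 0.0899, adjusted p = 0.0151) at 0.04 mM, -0.34 (SE 0.0878, 0.0119) at 0.12 mM, -0.55 (SE 0.0873, 8.74e-05) at 0.20 mM and -0.31 (SE 0.0863, 0.0495) at 0.28 mM, by edgeR's quasi-likelihood test with the block. Averaged over the 4 limited groups it was -0.38 (SE 0.0674, adjusted p = 0.000175), or 0.767 of the level in full medium. The fall at 0.20 mM and the averaged fall passed in every alternative tried, including each library left out in turn, other scalings and DESeq2, except that neither passed without the block (adjusted p = 0.485 and 0.426). The call at 0.04 mM was lost without full medium replicate 1 (-0.20, adjusted p = 0.161), without 0.04 mM replicate 1 (-0.32, 0.0725) or replicate 3 (-0.27, 0.0802), and when the pair of libraries rich in mitochondrial rRNA was left out (-0.27, 0.0763). At 0.12 mM leaving out 0.12 mM replicate 1 (-0.28, 0.122) or full medium replicate 1 (-0.23, 0.115) ended the call, and at 0.28 mM the call ended when any single one of the 6 libraries compared was left out (-0.20 to -0.37, adjusted p from 0.0559 to 0.253). Spike-in scaling also ended the calls at 0.04 mM (-0.32, 0.186) and at 0.28 mM (-0.43, 0.0895).

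JUNB, an AP-1 subunit that in other cell systems often opposes JUN in proliferation, rose at the lowest concentrations. It stood at 131, 110 and 101 CPM at 0.04 mM, 124, 89.5 and 107 at 0.12 mM, 102, 96.4 and 90.3 at 0.20 mM, 112, 99.7 and 90.8 at 0.28 mM, against 105, 73.8 and 87.1 CPM in full medium. Every 0.04, 0.12 and 0.28 mM library lay above the full medium library of its number, but the groups overlapped, full medium replicate 1 exceeding 0.04 mM replicate 3. At 0.04 mM the log2 change was 0.37 (SE 0.082, adjusted p = 0.00256), the steepest rise among the 10, and at 0.12 mM 0.27 (SE 0.0808, 0.0341). At 0.20 mM it was 0.12 (SE 0.0803, 0.328) and at 0.28 mM 0.19 (SE 0.0802, 0.229), neither past the test. Over the limited groups averaged it was 0.24 (SE 0.0645, 0.00976), a call lost without full medium replicate 2 (0.15, 0.188) and with spike-in scaling (0.14, 0.39). The rise at 0.04 mM was kept without each single library and lost with spike-in scaling (0.36, adjusted p = 0.0867) and without replicate 2 in all groups (0.27, 0.0773). The rise at 0.12 mM was lost without replicate 1 (0.24, 0.151) or 3 (0.22, 0.158) of that group and without full medium replicate 2 (0.18, 0.231), and was 0.08 (0.727) with spike-in scaling, which shifted the median of all genes by -0.177. Its opposite-strand neighbour HOOK2 had a log2 change of -0.15 (SE 0.138, adjusted p = 0.511) at 0.04 mM.

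JUN, the founding AP-1 subunit, went the other way. Its levels were 101, 83 and 58.9 CPM at 0.04 mM, 105, 78.8 and 57.9 at 0.12 mM, 96.6, 72.2 and 57.4 at 0.20 mM, 110, 81.8 and 62.9 at 0.28 mM, against 133, 83.7 and 63.7 CPM in full medium. Full medium was the highest of the 5 libraries in all 3 replicate numbers, by a wide margin in replicate 1 and by a narrow one in the others, and the groups overlapped. JUN fell at 0.20 mM (log2 change -0.29, SE 0.0757, adjusted p = 0.00891) and over the 4 limited groups averaged (-0.20, SE 0.0593, 0.0164). The values at 0.04, 0.12 and 0.28 mM were -0.19, -0.20 and -0.13, with adjusted p from 0.0993 to 0.432. With spike-in scaling the value at 0.12 mM passed (-0.38, 0.0493), while that at 0.20 mM no longer did (-0.33, 0.135). The calls at 0.20 mM and for the average rest on replicate 1: without full medium replicate 1 the change was -0.18 (0.12) at 0.20 mM and -0.09 (0.381) for the average, and without 0.20 mM replicate 1 it was -0.26 (0.078). JUND, the Jun gene expressed most evenly between resting and growing cells, ranged from 45.8 to 72.8 CPM with log2 changes of -0.08 to 0.02 and no call.

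**Figure D2:**
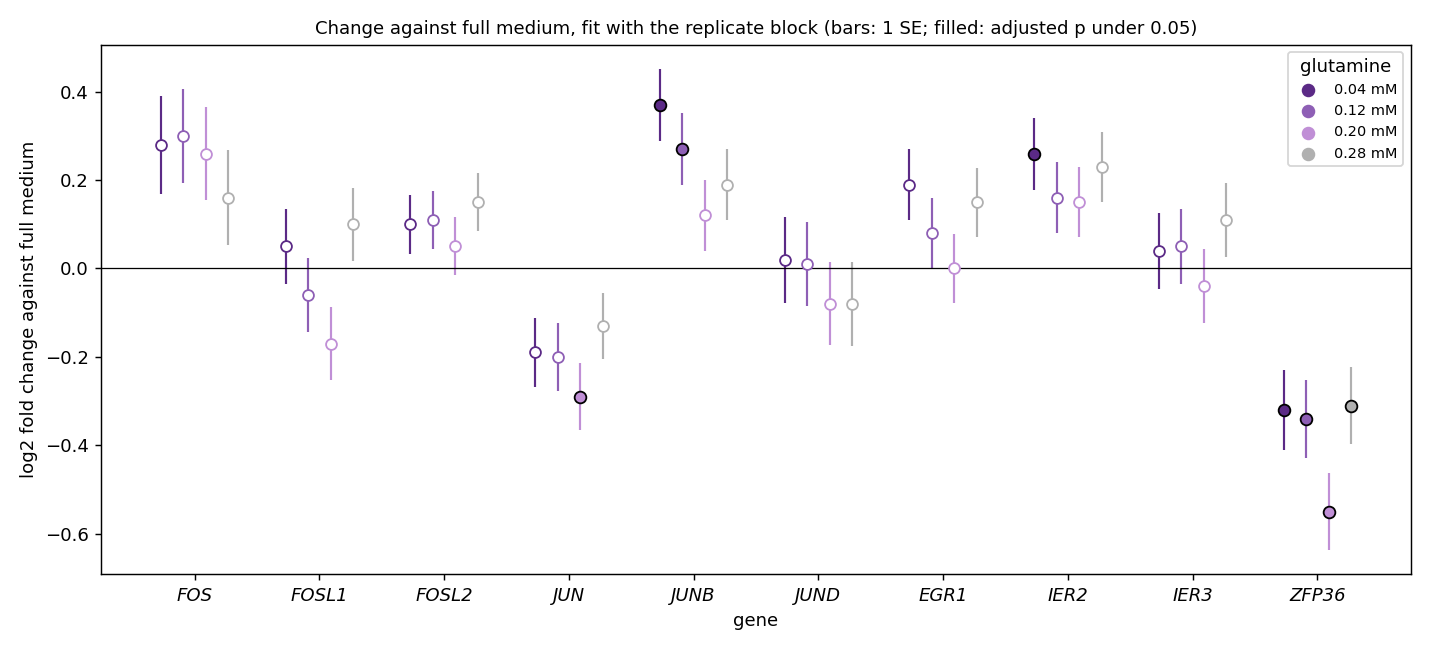
Log2 fold change of each gene at each limited glutamine concentration (0.04 to 0.28 mM) against full medium, from the fit with the replicate block; points are estimates from 3 libraries per group, bars are 1 standard error, and filled points have an adjusted p under 0.05. ZFP36 is filled at all 4 concentrations, JUNB at 0.04 and 0.12 mM, IER2 at 0.04 mM and JUN at 0.20 mM.

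FOS, the most transient of the Fos genes, stood at 41.3, 35.8 and 30 CPM at 0.04 mM, 42.6, 33.3 and 33.8 at 0.12 mM, 37.1, 38.9 and 30.7 at 0.20 mM, 35, 32.9 and 31.6 at 0.28 mM, against 34.5, 24.8 and 29.8 CPM in full medium. Full medium was the lowest of the 5 libraries in all 3 replicate numbers, as for 6.91% of all genes, and the groups overlapped. FOS rose over the limited groups averaged (log2 change 0.25, SE 0.0858, adjusted p = 0.041) and passed at no single concentration, where the changes were 0.16 to 0.30 with adjusted p from 0.0772 to 0.489. The averaged call is a marginal one: it passed in 12 of 24 alternatives and was 0.13 (0.417) without full medium replicate 2, the library with the lowest FOS level. With spike-in scaling it was 0.16 (0.419). It was also lost, at 0.22 to 0.30 with adjusted p from 0.0531 to 0.066, without any one of replicates 1 and 2 of 0.04 mM, replicate 1 of 0.12 mM, replicate 2 of 0.20 mM, replicates 2 and 3 of 0.28 mM and replicate 1 of full medium.

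FOSL1 and FOSL2, the later Fos genes, did not pass in any comparison. FOSL1 stood at 172, 127 and 104 CPM at 0.04 mM, 173, 121 and 81.7 at 0.12 mM, 151, 112 and 82.3 at 0.20 mM, 182, 145 and 92.4 at 0.28 mM, against 203, 121 and 77 CPM in full medium. Full medium held both the highest library (replicate 1) and the lowest (replicate 3) of all 15, and the limited groups lay within its range. The log2 changes of FOSL1 were 0.05, -0.06, -0.17 and 0.10 from 0.04 to 0.28 mM (SE 0.0826 to 0.0853, adjusted p from 0.169 to 0.765); without full medium replicate 3 that at 0.20 mM was -0.27 (adjusted p = 0.0342). FOSL2 had the narrowest range for its level, 142 to 190 CPM (highest over lowest 1.34), with log2 changes of 0.05 to 0.15 and adjusted p from 0.266 to 0.674.

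IER2, a small nuclear protein gene that is one of the fastest to be induced, stood at 106, 86.8 and 71.1 CPM at 0.04 mM, 96.9, 81.3 and 69.3 at 0.12 mM, 83.8, 86.6 and 74 at 0.20 mM, 90.5, 90.6 and 78.2 at 0.28 mM, against 86.5, 73 and 62 CPM in full medium. Of the 12 limited libraries all but 0.20 mM replicate 1 lay above the full medium library of their number, and the groups overlapped. IER2 rose at 0.04 mM (log2 change 0.26, SE 0.0816, adjusted p = 0.0317) and over the limited groups averaged (0.20, SE 0.0637, 0.0278). The rise at 0.04 mM passed in 6 of 16 alternatives and was 0.18 (0.27) without 0.04 mM replicate 1, 0.28 (0.0692) without 0.04 mM replicate 2, 0.24 (0.111) without full medium replicate 2 and 0.24 (0.0831) without full medium replicate 3. With spike-in scaling that rise was 0.25 (0.325). The averaged rise was lost with spike-in scaling (0.11, 0.562) and without 0.04 mM replicate 1 (0.18, 0.054), 0.20 mM replicate 3 (0.18, 0.0583) or replicate 2 (0.18, 0.147) or 3 (0.18, 0.119) of full medium.

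EGR1 and IER3 did not pass in any comparison. EGR1 stood at 187, 138 and 168 CPM at 0.04 mM and at 187, 117 and 128 CPM in full medium, level in replicate 1 and higher at 0.04 mM in the other two, with a log2 change of 0.19 (SE 0.0797, adjusted p = 0.112). Its changes at 0.12, at 0.20 and at 0.28 mM were 0.08, 0.00 and 0.15, with adjusted p from 0.361 to 0.988. IER3 lay between 98.1 and 133 CPM, with changes of -0.04 to 0.11 and adjusted p from 0.567 to 0.829. Both genes have their highest full medium value in replicate 1, and without that library EGR1 was 0.32 (adjusted p = 0.00346) at 0.04 mM and 0.28 (0.022) at 0.28 mM, and IER3 0.28 (0.0205) at 0.28 mM. Over the limited groups averaged EGR1 was then 0.24 (0.00989) and IER3 0.21 (0.0212), against 0.10 and 0.04 with all libraries.

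Set against all genes tested, at 0.04 mM 3 of 10 passed (JUNB and IER2 up, ZFP36 down) where 13.4% of all genes did, at 0.12 mM 2 (JUNB up, ZFP36 down) where 8.31% did, at 0.20 mM 2 (JUN and ZFP36 down) where 14.8% did, and at 0.28 mM 1 (ZFP36 down) where 2.08% did. The 4 comparisons share the 3 full medium libraries. The members' median log2 change was 0.08, 0.06, -0.02 and 0.13 from 0.04 to 0.28 mM, against 0.006, 0.005, 0.003 and 0 for all genes. No member had groups free of overlap in any comparison, where 15.2, 12.2, 15.5 and 9.29% of all genes did from 0.04 to 0.28 mM against full medium, and 6.03% between 0.04 and 0.28 mM.

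No difference among the limited groups passed the test for any member. Between 0.04 and 0.28 mM no member passed (0.0434% of all genes did), the widest change being JUNB at 0.18 (SE 0.0811, adjusted p = 0.512). A slope over log2 concentration in the 12 limited libraries gave no call for any gene (0% of genes); for JUNB it was -0.08 per doubling of glutamine (SE 0.0262, adjusted p = 0.457). In an F test of all 4 limited groups 0 of 10 members passed, where 0.0651% of all genes did, and the smallest p among members were those of FOSL1 (0.0129, adjusted 0.359), JUNB (0.0297, 0.467) and ZFP36 (0.0364, 0.501). All members but FOS and JUND had their lowest estimate at 0.20 mM and not at 0.04 mM, an order that this test did not resolve.

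The opposite directions of JUNB and JUN show in the ratio of the 2 transcripts, taken per kb of exon within a library. JUNB over JUN was 2.52, 2.57 and 3.33 at 0.04 mM, 2.31, 2.21 and 3.6 at 0.12 mM, 2.05, 2.6 and 3.06 at 0.20 mM, 1.99, 2.37 and 2.81 at 0.28 mM, against 1.54, 1.71 and 2.66 in full medium. In all 12 comparisons of a limited library with the full medium library of its number the ratio was higher under limitation. FOS over JUN behaved alike, at 0.446, 0.472 and 0.557 at 0.04 mM against 0.283, 0.324 and 0.512 in full medium, higher in 12 of 12, and the share of JUN among the 3 Jun transcripts was lower in 12 of 12 (19.5% ± 2.84 at 0.04 mM and 24.4% ± 4.58 in full medium, SD, n = 3 each). These ratios were chosen after the levels were seen and are given without a test. The count for FOS over JUN is fixed by the levels, full medium being lowest for FOS and highest for JUN in each replicate number. That for JUNB over JUN is nearly fixed in the same way, so both counts restate the levels and add no further evidence. Among the Fos transcripts the FOS share was higher under limitation in 9 of 12 (4, 4 and 1 of 4 in replicates 1, 2 and 3) and the FOSL2 share in 6 of 12. The FOSL1 share was higher in 5 of 12, at 67% ± 2.65 at 0.04 mM and 67.5% ± 8.99 in full medium.

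**Figure D3:**
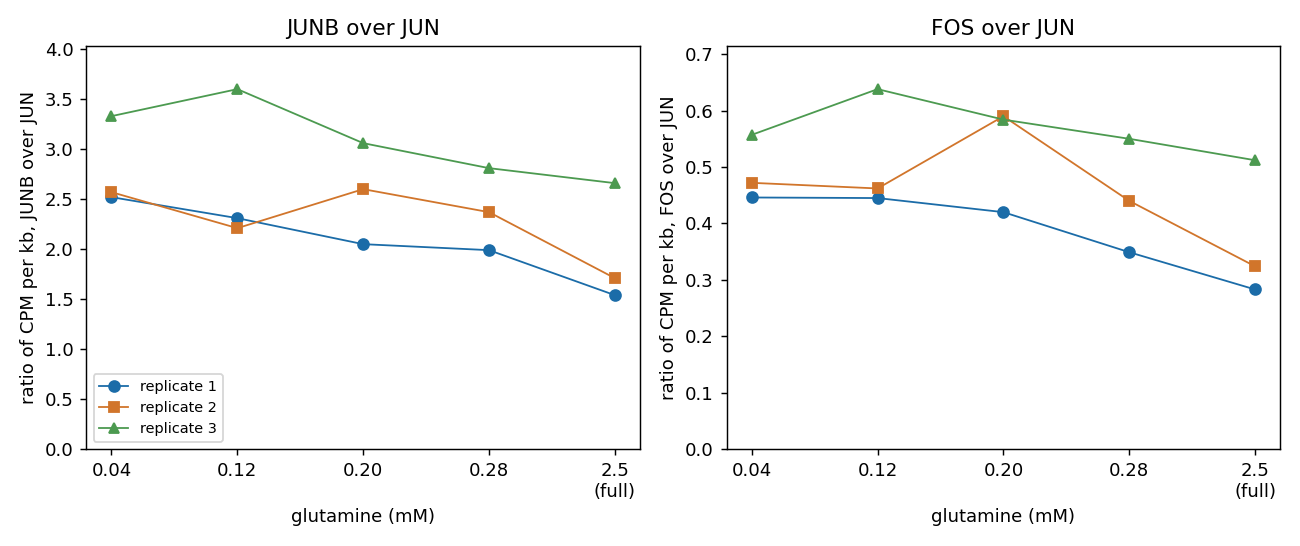
Ratio of JUNB to JUN (left) and of FOS to JUN (right), each from CPM per kb of exon, in each of the 15 libraries against glutamine concentration in mM; points are libraries and lines join libraries of the same replicate number. Within each number the full medium library has the lowest ratio, and replicate 3 is high throughout for JUNB over JUN.

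Replicate number held a larger share of the variance than glutamine group in 9 of the 10 genes. With group in the model, 9 of the 10 differed between replicate numbers, all but IER3 (adjusted p = 0.372), where 50.2% of all genes did. FOSL1 was lower in replicate 3 than in replicate 1 by a log2 difference of -1.02 and in replicate 2 by -0.49 (adjusted p = 9.66e-13), JUN by -0.85 and -0.45 (5.57e-12) and ZFP36 by -0.60 and -0.73 (3.21e-10). EGR1, IER2, JUNB, JUND, FOSL2 and FOS had differences of -0.38 to -0.19 for replicate 3 and -0.37 to -0.08 for replicate 2. Of the variance of log2 CPM, replicate number held 91% for JUN, 89.8% for FOSL1 and 73.3% for ZFP36, and group 6.37, 4.94 and 21.6%. JUNB and FOS had the largest group shares of the 10, 38.1 and 32.2%, and IER3 the largest remainder, 66.4%; the medians over all genes were 24% for group, 36.7% for replicate number and 31.7% left over. Depth also differs by replicate number, replicate 1 being the deepest, and its part in these differences was not tested.

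**Figure D4:**
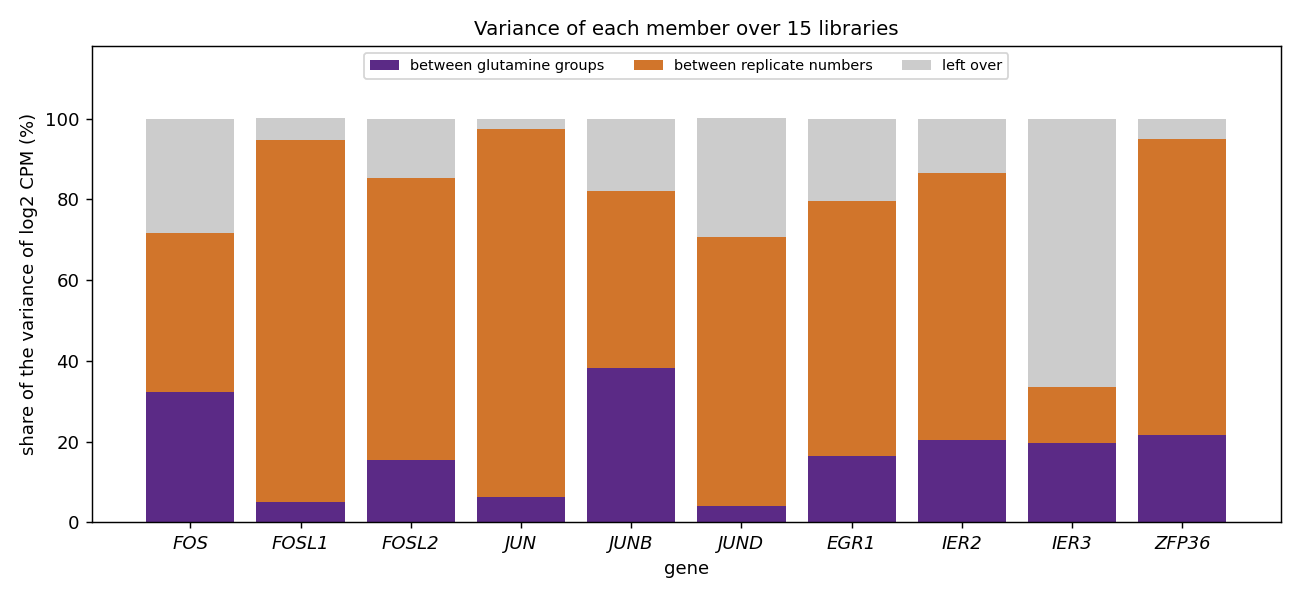
Share of the variance of log2 CPM over 15 libraries (%, stacked bars summing to 100) that lies between glutamine groups, between replicate numbers, and in neither, for each of the 10 genes. Replicate number takes 91% for JUN and 89.8% for FOSL1, and group at most 38.1%, for JUNB.

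Over the 15 libraries the members were positively correlated. All 45 pairs had a positive Pearson r of log2 CPM (0.0341 to 0.956, median 0.56), and 20 had an adjusted permutation p under 0.05 over the 45. Libraries that share a replicate number are not independent, so these p-values are too small. Each number has 5 libraries, too few for an r of its own; with the means of each number removed 35 of the 45 pairs were above 0, with a median r of 0.305. FOSL1 and JUN were the closest pair (r = 0.956, rho = 0.932, adjusted permutation p = 0.000225 and 0.00045, r = 0.966 without the 2 libraries farthest from the median FOSL1), and their r was 0.551 with the replicate means removed. For JUN and ZFP36 r was 0.789 pooled (rho = 0.721, adjusted permutation p = 0.00321 and 0.0151, r = 0.669 without the 2 farthest libraries) and 0.913 with the replicate means removed. For FOS and JUNB it was 0.853 pooled (rho = 0.782, adjusted permutation p = 0.00075 and 0.00675, 0.701 without the 2 farthest) and 0.791 with those means removed. JUN and JUNB had r = 0.463 pooled (rho = 0.514, adjusted permutation p = 0.131 and 0.0891, 0.46 without the 2 farthest) and -0.274 with the replicate means removed, but 0.222 with the group means removed as well. Among 10297 other genes, those closest to FOS over the 15 libraries were CRIP2 (r = 0.872), IGSF8 (0.871) and MAP3K3 (0.87), and those closest to FOSL1 were TAGLN2 (0.981), CDKN1A (0.981) and FSTL3 (0.978), each of these 3 with at least 87.4% of its variance between replicate numbers.

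Where other genes of the same response passed the test at a limited concentration, they rose. Of 27 further immediate early genes 23 were tested at 0.04 mM, and 8 rose and 0 fell (median log2 change 0.12, against 0.006 for all genes), led by the survival gene MCL1 (0.46, SE 0.0727, adjusted p = 9.05e-05), the antiproliferative BTG1 (0.57, SE 0.0974, 0.00018, with 17.06% exonic overlap and so uncertain), the MAP kinase phosphatase gene DUSP1 (0.44, SE 0.0762, 0.000196) and the matricellular CCN2 (0.58, SE 0.121, 0.00146). At 0.12, at 0.20 and at 0.28 mM, in that order, 4, 5 and 4 of the 23 rose and 0 fell. The counts of each list stand beside the shares of all genes that passed: from the lowest to the highest limited concentration 7.21, 4.41, 7.67 and 1.23% rose, while 6.23, 3.9, 7.15 and 0.846% fell. Of 14 other AP-1 and partner bZIP genes 12 were tested and 2 rose at 0.04 mM, the small Maf genes MAFF (0.52, SE 0.117, 0.00267) and MAFG (0.37, SE 0.0978, 0.0104); 1, 0 and 0 rose at the higher limited concentrations, counts near or below those shares. Without the block no gene of these lists, nor of any other list named here, passed at any single concentration.

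Genes that AP-1 is known to activate were the list with the highest median at 0.04 mM among the pathway lists, 0.32, with 7 of 17 tested rising and 0 falling. CXCL8, a neutrophil chemokine, averaged 11.7 CPM at 0.04 mM and 3.7 CPM in full medium (log2 change 1.67, SE 0.225, adjusted p = 1e-05), and MMP9, a gelatinase, 12.4 CPM at 0.04 mM and 4.3 CPM in full medium (1.49, SE 0.24, 9.29e-05, 18.41% exonic overlap and so uncertain). The urokinase gene PLAU rose by 0.68 (SE 0.0852, 2.82e-06, 31.05% exonic overlap and so uncertain). At 0.12, at 0.20 and at 0.28 mM, in that order, 6, 3 and 2 of the 17 rose and 0 fell, where 4.41, 7.67 and 1.23% of all genes rose, and 7.21% at 0.04 mM. Without the block 0 of the 17 passed at each concentration. Other factors also activate these genes, and AP-1 activity was not measured.

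**Figure D5:**
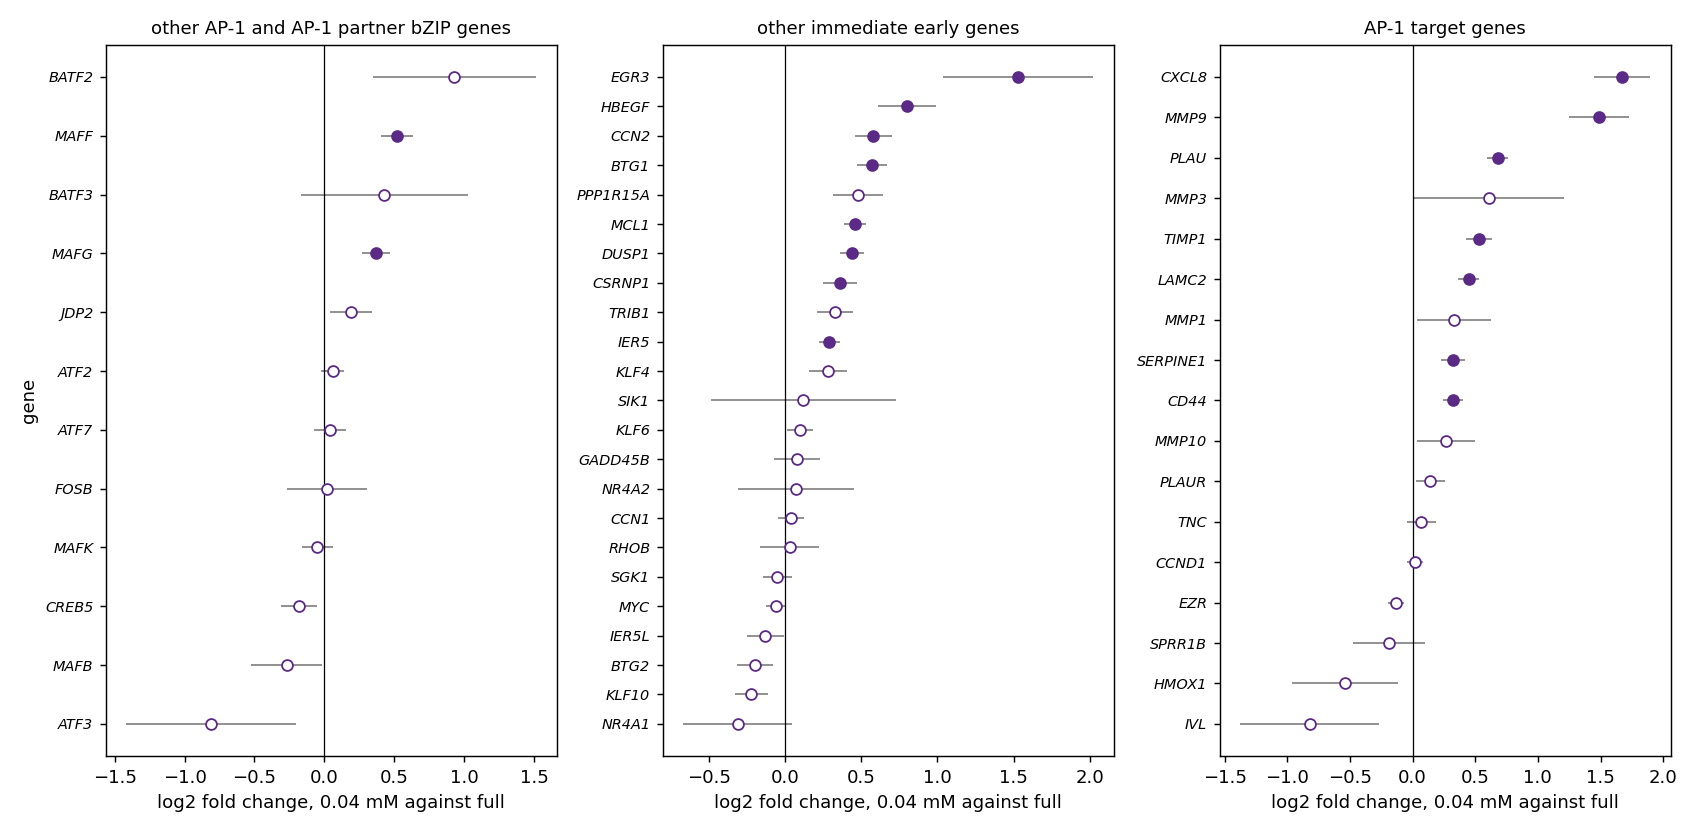
Log2 fold change at 0.04 mM against full medium of the other AP-1 and partner bZIP genes, the other immediate early genes and the AP-1 target genes that were tested, from the fit with the replicate block; points are estimates from 3 libraries per group, bars are 1 standard error, and filled points have an adjusted p under 0.05. All filled points, 2 of 12, 8 of 23 and 7 of 17, lie above 0.

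Of 25 kinases and serum response factors upstream of these genes, all tested, 3 rose and 1 fell at 0.04 mM (median 0.10), a share near the 13.4% of all genes that passed: the ETS factor gene ELK3 (0.37, SE 0.0807, adjusted p = 0.00246), the JNK gene MAPK8 (0.40, SE 0.12, 0.0221) and the ERK kinase gene MAP2K1 (0.22, SE 0.0672, 0.0231, 11.49% exonic overlap and so uncertain) rose, and the JNK kinase gene MAP2K7 fell (-0.33, SE 0.0838, 0.007). At 0.12, at 0.20 and at 0.28 mM, in that order, 2, 3 and 0 of the 25 rose and 0, 2 and 0 fell. Of 12 genes of AU-rich mRNA decay and EGR1 corepression the exonuclease gene XRN1 rose (0.44, SE 0.098, 0.00252) while the decay factor KHSRP (-0.29, SE 0.0743, 0.00723) and the stabilising factor ELAVL1 (-0.21, SE 0.0687, 0.0361) fell; the EGR1 corepressor NAB1 was at 0.24 (SE 0.0849, 0.0586). At both 0.12 and 0.20 mM 3 of these 12 rose and 3 fell. Of 12 mRNAs known to be bound by ZFP36, 9 were tested and 2 rose at 0.04 mM, CXCL8 and the chemokine CXCL1 (11.1 CPM at 0.04 mM and 5.11 CPM in full medium, 1.07, SE 0.223, adjusted p = 0.00139). IL1B (0.86, SE 0.313, 0.0626) and VEGFA (0.24, SE 0.0963, 0.0976), also on that list, did not pass, and none of the 9 fell. At 0.12, at 0.20 and at 0.28 mM 1 of the 9 rose and 0 fell each time. Of the 12 decay and corepression genes 0 rose and 0 fell at 0.28 mM. Of all genes 8.31, 14.8 and 2.08% passed in either direction at 0.12, at 0.20 and at 0.28 mM. Without the block 0 genes of these 3 lists passed at each concentration. CXCL8 is on both the AP-1 target and the ZFP36 list, and mRNA decay was not measured.

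Markers of other cell types were checked beside these changes. The 7 fibroblast markers summed to 50.8 to 60.5 CPM at 0.04 mM, 47.9 to 56.7 at 0.12 mM, 41.3 to 60.4 at 0.20 mM, 37.1 to 52.5 at 0.28 mM and 33.6 to 43.3 CPM in full medium, and the 2 that were tested, DCN (0.62, SE 0.125, adjusted p = 0.00108) and COL1A1 (0.46, SE 0.134, 0.0193), rose at 0.04 mM. DCN reached 45.6 CPM and COL1A1 41.8 CPM. The remaining fibroblast markers were lower: COL1A2, COL3A1 and PDGFRA did not exceed 0.449 CPM, PDGFRB did not exceed 1.36 CPM and LUM was at 0. The 5 endothelial markers summed to 6.51 to 12.7 CPM at 0.04 mM and 3.76 to 6.04 CPM in full medium, with CDH5 at 0 and PECAM1, the 1 tested, rising at 0.04 mM (0.81, SE 0.222, adjusted p = 0.0136; with no block neither it nor the fibroblast pair passed), and the 6 immune cell markers to at most 2.73 CPM, with CD3E and MS4A1 at 0. The part of these genes in the changes above was not tested.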

How the data were processed

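Total RNA from 15 MCF10A samples was depleted of ribosomal RNA, spiked with ERCC standards and sequenced, per the labels' protocols. The authors deposited a table of whole-number read counts per Ensembl gene and library for 62754 genes and 92 ERCC spike-ins; the submitters' processing notes name hg38 and GRCh38.p14. No aligner, counting program or strand setting is named in the sources used here. Every column matched a sample (0 unmatched). Gene symbols were found for 42343 genes.

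Genes were filtered with filterByExpr (minimum count 10, minimum total 15), which kept 13828 genes holding 99.72% or more of each library's counts. Counts were scaled by TMM and fitted over all 15 libraries with edgeR 4.0.16 (R 4.3.3), 1 term per group, by the quasi-likelihood test with Benjamini-Hochberg adjustment over the 13828 genes. The 4 limited groups were each compared with full medium, averaged against it, compared as 0.04 with 0.28 mM, and fitted with a slope over log2 concentration. The p-values measure the spread between these replicates, whose separateness beyond the design's word biological is not described. Levels are CPM with TMM-scaled library sizes; log2 CPM has a prior count of 2, and values per kb use the exonic length in GENCODE 29, which may differ from the annotation used for counting. The SE of a log2 change is its size over the root of F. Correlations had 100000 permutations, two-sided.

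The labels number the replicates 1 to 3 in each group, without saying what a number marks. After subtracting group means, same-numbered libraries correlated with r of 0.184 to 0.489 (30 of 30 pairs over 0.1). Libraries that differed in both number and group correlated with -0.406 to 0.0549. The best partner of a library had its own number in 15 of 15. The numbers were therefore taken to pair the libraries, under the rule set for that check, and the text gives values from the fit with the replicate block. The planned main fit has no block; it called 0 members in every comparison, as the report states beside the first calls.

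The members and gene lists were chosen with earlier results of these data known, so no list is independent evidence. All 10 members are named in every comparison, up to 4 genes with the smallest adjusted p at 0.04 mM exemplify a list, and the 3 genes most like FOS and FOSL1 by r are named among 10297 tested genes with a symbol and at least 5 CPM. Promoters are RefSeq's (GRCh38.p14); the 3′UTR of a gene is that of 1 GENCODE 29 transcript. Alternatives were DESeq2 1.42.0, its size factors, spike-in scaling, a filter of only 1 count, a stricter one (5 CPM in at least 3 libraries), the compared groups alone, and each library or replicate number left out; leaving out the 2 libraries with most mitochondrial rRNA was chosen after seeing the data. The code was tested on simulated data. Python 3.11.15, SciPy 1.17.1 and matplotlib 3.10.9 were used for tables, correlations and figures. One gene that the naming rule picked is not reported here. Protein data, which the series title mentions, were not analysed here.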

Additional observations from a re-analysis of the deposited data

How the results depend on the processing

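With the replicate block, members past the test numbered 3 at 0.04 mM, 2 at 0.12 mM, 2 at 0.20 mM, 1 at 0.28 mM and 5 for the limited groups averaged, against 0 in each without it; no other comparison changed its count with the block. Without the block but with no filter beyond 1 count, ZFP36 passed at 0.20 mM and in the average (1 member each). Of the 32760 genes then tested 84 and 248 passed in these 2 comparisons. The remaining counts are from the fit with the block. Spike-in scaling left 0, 1, 0 and 2 members at 0.04, 0.20 and 0.28 mM and in the average. Of the 13828 genes 506, 421, 120 and 1350 passed there, against 1858, 2050, 287 and 2357 with TMM. At 0.12 mM 1206 genes passed with spike-in scaling, against 1149 with TMM. Spike-in scaling shifted the median log2 change of all genes by -0.177 at 0.12 mM, -0.129 at 0.28 mM and 0.128 between 0.04 and 0.28 mM. The 5 called members kept their sign under it. The rises of FOS, JUNB and IER2 were all lost under it, and every member that passed under it fell. The 2 groups alone gave 0 at 0.12 mM, DESeq2 size factors 0 at 0.28 mM, no filter beyond 1 count 3 in the average, and leaving out the 2 libraries with most mitochondrial rRNA 1 at 0.12 mM. In that order 272, 291, 2091 and 873 of all genes passed, of 32760 with no filter beyond 1 count and of 13828 otherwise. With replicate number 1, 2 or 3 left out in all groups, in that order, the 0.04 mM comparison had 2, 1 and 1 members. Of all genes 1365, 717 and 996 passed there. At 0.12 mM 0, 1 and 1 members passed, beside 924, 322 and 463 of all genes. At 0.20 mM it was 1, 2 and 2 members, beside 895, 1274 and 985 genes. At 0.28 mM it was 0 members each time, beside 215, 62 and 1 genes. In the average it was 4, 2 and 4 members, beside 1703, 1265 and 1367 genes. EGR1 was gained at 0.04 mM (0.31, adjusted p = 0.0351) and in the average (0.24, 0.03) without number 1. Leaving out single libraries gave 1 to 3 members at 0.04 mM, 0 to 2 at 0.12 mM, 1 to 3 at 0.20 mM, 0 to 2 at 0.28 mM and 2 to 5 in the average. Of all genes 963 to 2088, 550 to 1438, 988 to 1880, 24 to 775 and 1467 to 2409 passed, in the same order. A slope over all 15 libraries, with full medium at 2.5 mM, called 4 members and 2163 of the 13828 genes. In the 12 limited libraries the slope called 0 members and 0 genes. ZFP36 reversed to 0.064 per doubling (adjusted p = 0.0108) over all 15, and the added group is the one it was compared with above. Fewer libraries leave fewer degrees of freedom; otherwise the cause was not tested. Depth limits FOS most, at 111 to 537 counts per library.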
